A study of Drosophila melanogaster with 6 samples.

Results

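The vacuolar proton pump (V-ATPase) subunits are encoded in Drosophila melanogaster by genes whose FlyBase symbols start with Vha. Members were all genes of the deposited count table whose identifier matched such a symbol, and 28 of 14737 genes did so, with 122 exonic bins and 80 annotated splice junctions among 128393 features. The reference gene list holds 33 Vha symbols, and the other 5 (Vha68-1, Vha26, Vha13, VhaAC39-1 and Vha44) were not analysed here. Lysates of whole embryos of 2 genotypes were sequenced: embryos carrying the caperCC01391 allele (here the caper mutant) and wild-type OreR (Oregon-R) embryos, with 3 biological replicates each, collected on apple juice plates with yeast and given no treatment. caper encodes an RNA-binding protein related to the vertebrate splicing factor RBM39. Its own counts were not analysed here, so the genotypes rest on the labels, which state neither embryo age nor zygosity. Allele and strain background coincide and cannot be told apart, and in whole embryos fewer cells of a type and less RNA per cell cannot be told apart either.

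The V-ATPase is a rotary pump that uses ATP to drive protons across membranes. Its peripheral sector, V1, holds the ATP-splitting A and B subunits, the central stalk subunits D and F, and the stator and regulatory subunits C, E, G and H. Its membrane sector, V0, holds the proton-carrying ring of c and c'' subunits and the large subunit a that channels protons and sets where the pump goes. V0 also holds subunit d and the small subunit e. Pumps acidify lysosomes and endosomes in all cells and synaptic vesicles in neurons. They also energise the plasma membrane of epithelia such as the fly's Malpighian (renal) tubule. Flies carry several copies of many subunit genes, 1 of them usually broad in its expression; some of the others are known mainly from adult testis.

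Libraries held between 34815930 and 42956396 gene counts. Genotypes differed across the transcriptome: of 10251 genes tested, 46.9% passed the test (quasi-likelihood test of edgeR, adjusted p below 0.05 by Benjamini-Hochberg), 26.4% as higher and 20.6% as lower in the mutant, and the values of the genotypes did not overlap in 60.4%. Over all tested genes the log2 fold change had a median of -0.07, and upper quartile scaling in place of TMM shifted it by -0.16, so changes of that size depend on the scaling. Levels are given as CPM, counts scaled to the TMM-adjusted total of each library, and fold changes are caper mutant over OreR. The replicates are called biological, with no word on separate parents or collections, so p-values measure the spread between these samples.

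In caper mutant embryos, 5 of the 6 tested genes of the peripheral V1 sector were lower and 1 was higher, while the main proton ring genes of V0 overlapped between the genotypes. The genes of the V1 subunits C, E and G (Vha44, Vha26 and Vha13) are among those not analysed here. Among the 17 members with enough counts to be tested, 11 passed (64.7%, against 46.9% of all tested genes), 2 as higher and 9 as lower; the others comprised 6 tested members that did not pass and 11 with too few counts. Their median log2 fold change was -0.36, and the genotypes did not overlap in 14 of the 17 (82.4%, against 60.4%). All 6 tested V1 genes passed, 5 lower (Vha55, Vha68-2, Vha36-1, Vha36-3 and VhaSFD) and 1 higher (Vha14-1). Of 9 tested V0 genes, Vha100-1 was higher, Vha100-2 and Vha100-5 were lower, and 6 did not pass. Both accessory genes, VhaAC45 and VhaAC45RP, were lower. With upper quartile scaling the split was 1 higher and 10 lower, against 2269 higher and 3566 lower among all 10251 genes tested. The 9 decreases became 5 without OreR replicate 2, 7 without OreR replicate 1 or without mutant replicate 3, and 8 without any other single library. Fewer genes passed as lower in the whole transcriptome as well: 2109 with all libraries, and between 975 and 1653 on leaving out each library (1538 without OreR replicate 2). The summed level of the 6 tested V1 genes was 1031.1, 1058.0 and 894.7 CPM in mutant replicates 1 to 3, against 1336.7, 1377.6 and 1252.6 CPM in OreR replicates 1 to 3. These sums did not overlap. The summed level of the 9 tested V0 genes was 1914.6 ± 65.2 CPM in the mutant and 1907.0 ± 73.8 CPM in OreR (SD, n = 3 each), a difference smaller than either SD. Vha16-1 alone had 1148.4 CPM in the mutant and 1140.0 CPM in OreR, so the V0 sum mostly follows 1 gene. With upper quartile scaling the log2 fold change of Vha16-1 was -0.15, so the likeness of the V0 sums depends on the scaling. The decreases were not even over libraries: mutant replicate 3 was the lowest of the mutant libraries for 9 of the 9 lower genes, and OreR replicate 2 was the highest of the OreR libraries for 6 of them. A low replicate 3 was not particular to the mutant. OreR replicate 3 was the lowest of the OreR libraries for each of these genes except VhaAC45RP.

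**Figure D1:**
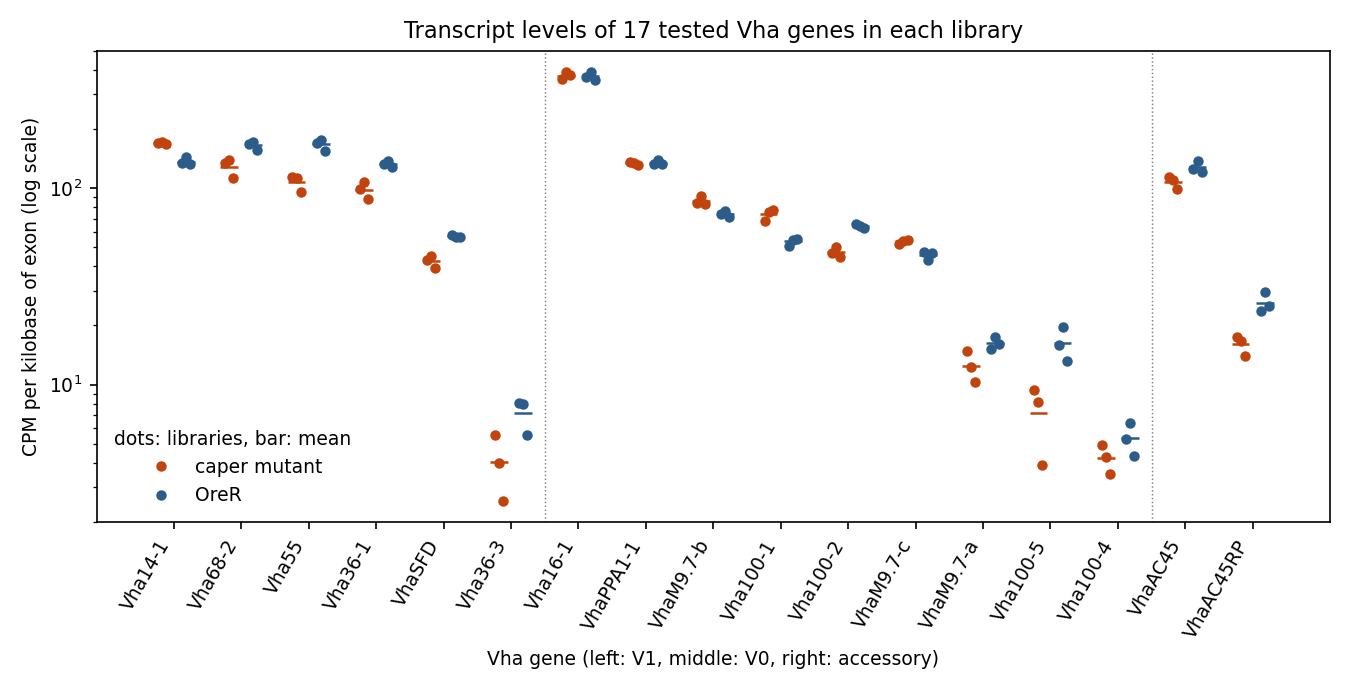
Level of each tested Vha gene in CPM per kilobase of annotated exon (log axis) in the 3 caper mutant libraries and the 3 OreR libraries; dots are libraries and bars are means. Vha16-1 lies highest in both genotypes, and the mutant dots lie below the OreR dots for every V1 gene but Vha14-1.

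Levels of different genes were compared per kilobase of exon, with exon lengths from the BDGP6 annotation. Vha16-1 (FBgn0262736), the c subunit of the proton ring, which is present in many copies per pump, had by far the highest level. It had 357.6, 387.7 and 374.3 CPM per kilobase in mutant replicates 1 to 3 and 367.3, 389.0 and 355.1 in OreR replicates 1 to 3. In OreR, Vha55 and Vha68-2 followed at 167.1 ± 10.6 and 165.0 ± 8.63 CPM per kilobase (SD, n = 3), with overlapping ranges. Next in OreR came Vha14-1, VhaPPA1-1, Vha36-1 and VhaAC45, between 136.3 and 128.1 CPM per kilobase on average, each overlapping its neighbour in that order. In the mutant the order differed: Vha14-1 followed Vha16-1 at 169.4 ± 2.34 CPM per kilobase, ahead of VhaPPA1-1 at 134.2 ± 2.46 and Vha68-2 at 128.3 ± 14.2, and Vha55 came behind VhaAC45 at 107.3 ± 9.96 (SD, n = 3). From VhaPPA1-1 down to VhaM9.7-b, each mutant range overlapped that of its neighbour in this order. From Vha100-2, VhaSFD and Vha100-1 at 64.1, 57.0 and 53.6 CPM per kilobase in OreR, levels ran down through VhaAC45RP, VhaM9.7-a and Vha100-5 to Vha36-3 and Vha100-4 at 7.17 and 5.33. Untested members averaged at most 0.24 CPM per kilobase in either genotype.

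Of the genes for the ATP-splitting head of V1, Vha55 and Vha68-2 had less RNA in the mutant. Vha55 (FBgn0005671) encodes subunit B, the partner of A in the ring that binds ATP. It had 316.5, 313.2 and 266.9 CPM in mutant replicates 1 to 3, against 473.3, 490.4 and 432.8 CPM in OreR replicates 1 to 3. Every mutant library lay far below every OreR library. The decrease was 1.56-fold (log2 fold change -0.64 ± 0.09 SE, edgeR adjusted p = 0.0015) and stayed between -0.67 and -0.56 on leaving out each library. Vha68-2 (FBgn0263598), the catalytic subunit A, had 369.4, 383.4 and 309.5 CPM in the mutant, against 460.9, 475.7 and 429.1 CPM in OreR. The groups did not overlap, with mutant replicate 3 lowest. It was 1.29-fold lower (log2 fold change -0.36 ± 0.10, adjusted p = 0.021), and the adjusted p was 0.060 without OreR replicate 1 and 0.055 without OreR replicate 2. Subunit A has a near copy, Vha68-1, separated from Vha68-2 by Vha68-3 and 1 other protein-coding gene, so reads of similar sequence make the level of Vha68-2 uncertain. Per kilobase, Vha55 stood at 0.848, 0.809 and 0.854 of Vha68-2 in mutant replicates 1 to 3 and at 1.02, 1.02 and 0.999 in OreR replicates 1 to 3. The ratio of Vha55 to Vha68-2 was thus lower in every mutant library. Subunits A and B enter the pump in equal numbers, but Vha68-1 was not analysed, so the ratio of all B to all A RNA is not known.

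The central stalk did not move as a unit. Vha36-1 (FBgn0022097), the broad copy of the rotor subunit D, had 105.4, 114.6 and 93.7 CPM in the mutant, against 140.4, 146.4 and 136.8 CPM in OreR. No mutant library reached the OreR range, and the decrease was 1.35-fold (log2 fold change -0.43 ± 0.09, adjusted p = 0.0071). Vha14-1 (FBgn0262512), the rotor subunit F that binds D, went the other way. It had 111.3, 113.4 and 110.4 CPM in the mutant, against 88.0, 94.4 and 87.1 CPM in OreR. Every mutant library was higher than every OreR library, by 1.24-fold on average (log2 fold change 0.31 ± 0.07, adjusted p = 0.010). With upper quartile scaling its log2 fold change was 0.15 and the adjusted p 0.12, and the adjusted p was 0.051 without mutant replicate 2. VhaSFD (FBgn0027779) encodes subunit H, which couples V1 to V0 and silences V1 once the sectors part. It had 121.4, 128.3 and 110.9 CPM in the mutant, against 163.7, 160.4 and 159.6 CPM in OreR. The OreR values were tight and lay above all mutant values, a 1.34-fold decrease (log2 fold change -0.42 ± 0.08, adjusted p = 0.0040).

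**Figure D2:**
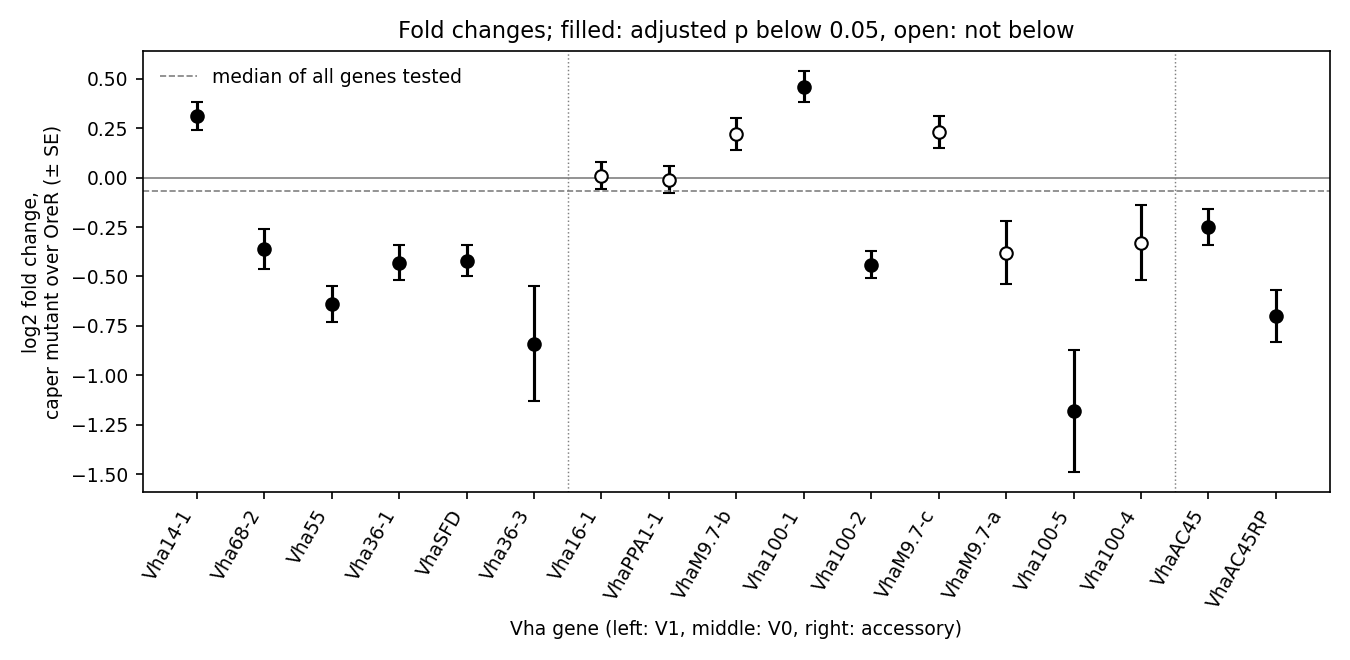
Log2 fold change (caper mutant over OreR) with its standard error for each of 17 tested Vha genes, grouped by V1, V0 and accessory; filled points passed the test, open points did not, and the dashed line is the median of all tested genes. In V1 every point but Vha14-1 lies below 0, whereas V0 points run from -1.18 for Vha100-5 to 0.46 for Vha100-1.

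The main proton ring genes overlapped between the genotypes, and their log2 fold changes depended on the scaling. Vha16-1 had 1100.5, 1193.0 and 1151.8 CPM in the mutant, against 1130.3, 1197.1 and 1092.7 CPM in OreR. The groups overlapped fully, with a log2 fold change of 0.01 ± 0.07 (adjusted p = 0.92) that turned to -0.15 with upper quartile scaling and to -0.18 with library totals (adjusted p = 0.14 and 0.059). VhaPPA1-1 (FBgn0028662), the c'' subunit of the ring, had 184.5, 181.7 and 177.9 CPM in the mutant, against 180.0, 188.3 and 178.5 CPM in OreR. Its values overlapped as well (log2 fold change -0.01 ± 0.07, adjusted p = 0.94), but with upper quartile scaling it was at -0.17 (adjusted p = 0.079) and with library totals it passed as lower at -0.19 (adjusted p = 0.045). Set against Vha16-1 per kilobase, Vha55 stood at 0.318, 0.290 and 0.256 in mutant replicates 1 to 3 and at 0.462, 0.452 and 0.437 in OreR replicates 1 to 3. Vha68-2 stood at 0.374, 0.358 and 0.300 in the mutant and at 0.455, 0.443 and 0.438 in OreR. These ratios do not depend on the scaling of the libraries, and neither overlapped between genotypes.

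None of the 3 tested copies of the small e subunit passed the test. VhaM9.7-b (FBgn0028663), the most abundant, had 102.0, 111.2 and 100.4 CPM in the mutant, against 90.1, 93.3 and 86.5 CPM in OreR. VhaM9.7-c (FBgn0028664) had 44.3, 45.8 and 46.4 CPM in the mutant, against 40.1, 36.4 and 39.4 CPM in OreR. For both, all mutant values lay above all OreR values, but neither passed the test (log2 fold changes 0.22 ± 0.08 and 0.23 ± 0.08, adjusted p = 0.053 and 0.054); both passed with DESeq2 (adjusted p = 0.031 and 0.022) and without a low-count filter (0.046 and 0.047), while upper quartile scaling gave 0.06 and 0.08 (adjusted p = 0.56 and 0.39) and library totals 0.03 and 0.05 (adjusted p = 0.77 and 0.65). VhaM9.7-a (FBgn0035521) had 10.6, 8.73 and 7.33 CPM in the mutant, against 10.8, 12.4 and 11.4 CPM in OreR, which did not overlap by a narrow margin and did not pass (log2 fold change -0.38 ± 0.16, adjusted p = 0.092). It passed as lower with upper quartile scaling (-0.54, adjusted p = 0.037), with library totals (-0.56, adjusted p = 0.034), with exonic bins alone (-0.46, adjusted p = 0.045) and with junctions alone (-0.65, adjusted p = 0.028).

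Copies of subunit a moved in opposite directions. Vha100-1 (FBgn0028671), known in flies for its role at synapses, was higher in the mutant, and Vha100-2 (FBgn0028670), a broad copy used in epithelia, was lower. Vha100-1 had 223.4, 248.5 and 253.6 CPM in mutant replicates 1 to 3, against 167.8, 179.3 and 181.7 CPM in OreR replicates 1 to 3. The genotypes were well apart, 1.37-fold higher in the mutant (log2 fold change 0.46 ± 0.08, adjusted p = 0.0032), and the rise was 0.30 with upper quartile scaling (adjusted p = 0.011). Vha100-2 had 150.8, 160.8 and 143.6 CPM in the mutant, against 212.4, 205.7 and 201.0 CPM in OreR. It was 1.36-fold lower without overlap (log2 fold change -0.44 ± 0.07, adjusted p = 0.0025). Vha100-5 (FBgn0032373), a rarer copy, had 27.5, 23.8 and 11.4 CPM in the mutant, against 46.5, 57.1 and 38.4 CPM in OreR. Mutant replicate 3 lay well below the other mutant libraries, and no values overlapped between the genotypes, and the decrease was 2.27-fold (log2 fold change -1.18 ± 0.31, adjusted p = 0.018), the largest among tested members. Without mutant replicate 3 its log2 fold change was -0.88, and without OreR replicate 2 the adjusted p was 0.055. Vha100-4 (FBgn0038613), the direct neighbour of Vha100-2 in the genome, had 13.4, 11.7 and 9.52 CPM in the mutant, against 14.4, 17.3 and 11.9 CPM in OreR. The ranges overlapped and it did not pass (log2 fold change -0.33 ± 0.19, adjusted p = 0.17).

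In share of all subunit a counts, Vha100-1 took 53.8%, 55.9% and 60.7% in mutant replicates 1 to 3, against 38.0%, 39.0% and 42.0% in OreR replicates 1 to 3. Vha100-2 took 36.3%, 36.1% and 34.3% in the mutant, against 48.2%, 44.8% and 46.4% in OreR. The leading copy by counts was therefore Vha100-1 in every mutant library and Vha100-2 in every OreR library. The summed level of the subunit a genes overlapped, at 415.1, 444.7 and 418.0 CPM in the mutant and 441.1, 459.5 and 433.0 CPM in OreR. In the BDGP6 annotation, Vha100-1 overlaps exons of Alg13, Vha100-4 those of cona and Vha100-5 those of the antisense RNA asRNA:CR44144, each on the opposite strand. The kit was stranded, but no source used here says whether the counting used strand, so part of the counts of these 3 genes could belong to the partner.

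**Figure D3:**
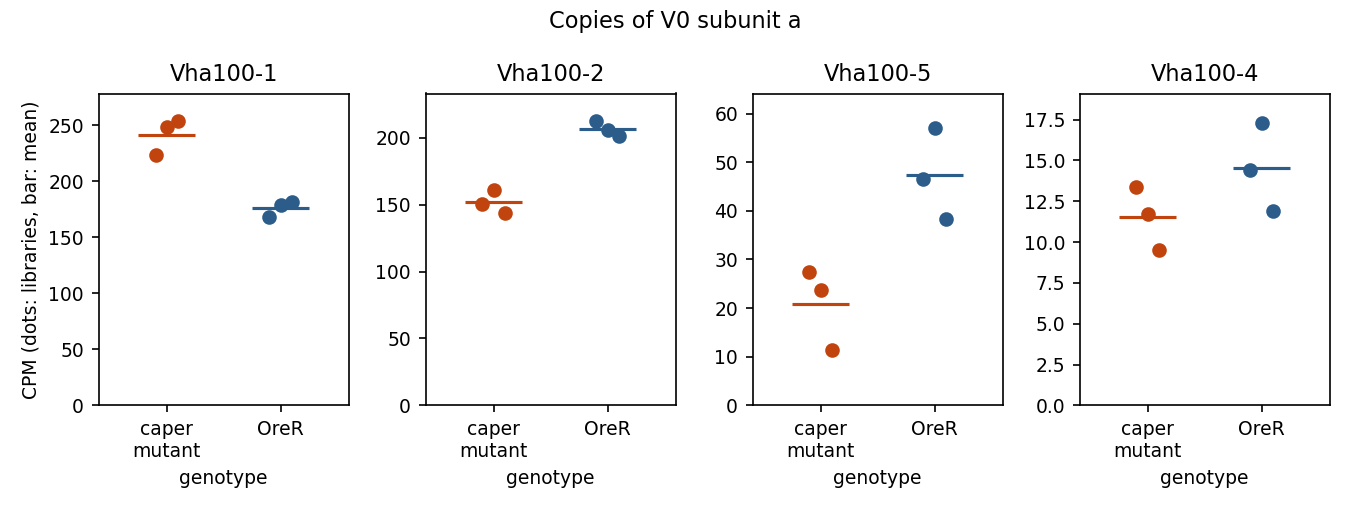
CPM of the 4 detected copies of V0 subunit a in each library (dots) with the mean (bar), caper mutant at the left of OreR in each panel. Vha100-1 is higher in every mutant library, Vha100-2 and Vha100-5 are lower in every mutant library, and Vha100-4 overlaps.

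Accessory subunits were lower in the mutant. VhaAC45 (FBgn0262515), the Ac45 protein that helps assemble V0, had 229.1, 220.6 and 198.8 CPM in the mutant, against 252.7, 277.3 and 243.9 CPM in OreR. The gap between the genotypes was narrow, and the 1.19-fold decrease (log2 fold change -0.25 ± 0.09, adjusted p = 0.046) did not pass on leaving out any single library (adjusted p between 0.072 and 0.14). VhaAC45RP (FBgn0051030), a related gene linked in flies to the acidification of synaptic vesicles, had 29.3, 27.7 and 23.4 CPM in the mutant, against 39.5, 49.3 and 42.1 CPM in OreR. It was 1.63-fold lower without overlap (log2 fold change -0.70 ± 0.13, adjusted p = 0.0039). The prorenin receptor gene ATP6AP2, a further accessory subunit that once carried a Vha symbol and was looked up after the members, had 180.5 ± 8.93 CPM in the mutant and 202.1 ± 11.2 CPM in OreR (SD, n = 3 each; adjusted p = 0.12).

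Copies of the same subunit were also set against each other. The main copy was the one with the highest CPM per kilobase over all 6 libraries, both genotypes pooled, which for subunit a was Vha100-1 although Vha100-2 led in OreR, and 10 other copies with at least 30 counts were compared with it by the log2 ratio of counts in each library. In 6 of the 10 the ratios of the genotypes did not overlap, and in all 6 the ratio was lower in the mutant. That share is close to the 60.4% of all tested genes whose CPM did not overlap, so the number of copies is not read as a result. Among the 6, Vha14-2 reached the minimum of 30 counts mainly through OreR. With 3 libraries against 3 the exact two-sided permutation test cannot give a p below 0.10, which each of these 6 reached (adjusted over the 10 copies, 0.17), so none can pass. Relative to Vha100-1, Vha100-2 had 67.5%, 64.7% and 56.6% of its counts in mutant replicates 1 to 3, against 126.6%, 114.7% and 110.6% in OreR replicates 1 to 3, a log2 ratio difference of -0.90. For Vha100-5 the difference was -1.71 and for Vha100-4 it was -0.79. These 3 of the 6 lower ratios share Vha100-1, itself higher in the mutant, and are not independent of each other. VhaAC45RP had 12.8%, 12.6% and 11.8% of the counts of VhaAC45 in the mutant and 15.6%, 17.8% and 17.3% in OreR, a difference of -0.45. VhaM9.7-a had 8.50 ± 1.63% of the counts of VhaM9.7-b in the mutant and 12.8 ± 0.753% in OreR (SD, n = 3 each; difference -0.61). VhaM9.7-c did not differ in its ratio to VhaM9.7-b beyond the spread, at 43.6 ± 2.50% in the mutant and 43.0 ± 3.55% in OreR (difference 0.02, exact permutation p = 0.80).

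Vha36-3 (FBgn0040377), the X-linked second copy of the rotor subunit D, had 7.13, 5.13 and 3.32 CPM in the mutant, against 10.4, 10.3 and 7.16 CPM in OreR. The highest mutant value lay just under the lowest OreR value, and the decrease was 1.78-fold (log2 fold change -0.84 ± 0.29, adjusted p = 0.048). Leaving out single libraries moved its adjusted p between 0.023 and 0.12. Its ratio to Vha36-1, which was itself lower in the mutant, overlapped, with 4.93 ± 1.66% in the mutant and 6.55 ± 1.16% in OreR (SD, n = 3 each; exact permutation p = 0.20).

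**Figure D4:**
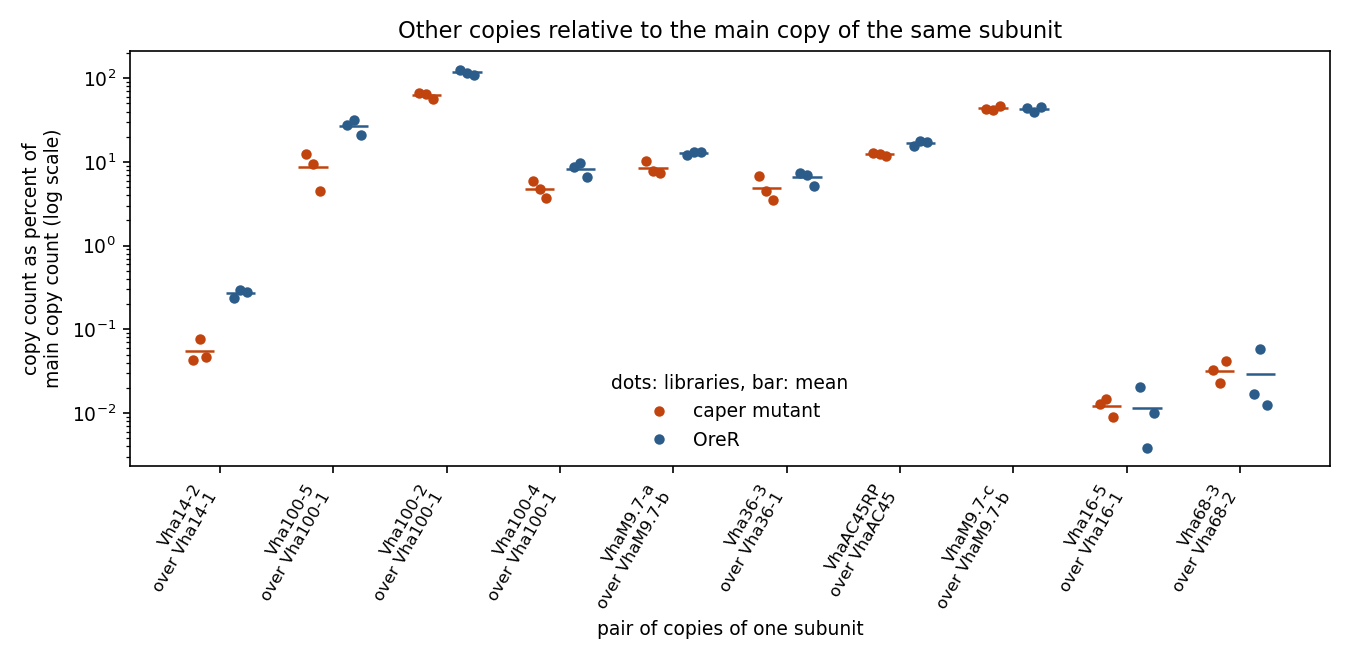
Counts of 10 Vha copies as a percent of the counts of the main copy of the same subunit (log axis), per library (dots) with the mean (bar), caper mutant left of OreR. The dots of the genotypes are apart for the pairs led by Vha14-2, Vha100-5, Vha100-2, Vha100-4, VhaM9.7-a and VhaAC45RP, each lower in the mutant.

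Of the 11 members with too few counts to be tested, Vha100-3 and Vha36-2 were at 0 counts in all 6 libraries, and Vha16-2, Vha16-4 and VhaPPA1-2 had a single count each. The remaining 6, Vha16-3, Vha16-5, VhaM9.7-d, Vha68-3, VhaAC39-2 and Vha14-2, had between 23 and 36 counts over all libraries, and no library held more than 12 counts of any of them. Vha14-2 (FBgn0037402), the second copy of rotor subunit F, had 2, 3 and 2 counts in mutant replicates 1 to 3, against 8, 12 and 9 counts in OreR replicates 1 to 3. These counts did not overlap, and as a share of Vha14-1 they gave 0.0430%, 0.0767% and 0.0466% in the mutant and 0.234%, 0.295% and 0.280% in OreR (log2 ratio difference -2.11). VhaAC39-2, a second copy of subunit d, had 2, 2 and 5 counts in the mutant and 8, 5 and 8 in OreR, and the ranges touched at 5 counts. Vha68-3 had 5, 3 and 5 counts in the mutant and 3, 12 and 2 in OreR, Vha16-5 had 6, 6 and 4 against 9, 2 and 4, and Vha16-3 had 8, 3 and 3 against 4, 1 and 7. No direction could be read from these 3 genes, whose ranges overlapped. At such counts a difference would have to be large to be detectable. Among neighbours in the genome, Vha16-3 and Vha16-2 lie side by side and were both near 0, while Vha68-3 lies beside the abundant Vha68-2, and VhaPPA1-2 lies 1 protein-coding gene away from VhaPPA1-1.

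Testis genes were measured for comparison, because some rare copies are known from testis. Of 36 testis markers with rows, 21 had under 30 counts over the 6 libraries, 9 of them 0, and of the 12 tested, 6 were higher and 2 lower in the mutant (66.7% passed, against 46.9% of all tested genes; median log2 fold change 0.81). Those at 0 were sa, Mst84Da, Mst84Db, Mst84Dc, Mst84Dd, ProtA, dj, S-Lap4 and S-Lap8, and all markers with rows summed to 423.5 to 492.8 CPM in the mutant and 227.5 to 253.3 CPM in OreR. Among the tested markers, twe was higher, with 230.5 ± 31.2 CPM in the mutant and 73.2 ± 18.3 CPM in OreR. S-Lap1 was also higher (79.3 ± 7.73 and 0.135 ± 0.0835 CPM in the same order). The difference between the summed levels lay mainly in twe and S-Lap1, so the sums do not describe the markers as a class. The tested marker with the highest level in OreR, bol, was lower in the mutant. It had 81.4 ± 2.11 CPM in the mutant and 122.4 ± 11.5 CPM in OreR (SD, n = 3 each). These 3 genes were chosen after their values were seen. Markers of tissues in which the pump is abundant were also followed. Of 20 tested Malpighian tubule and hindgut markers, 6 were lower and 1 higher (35% passed, fewer than the 46.9% of all tested genes; median -0.26, summed level 858.0 to 949.5 CPM in the mutant and 1004.8 to 1145.1 CPM in OreR). Of 13 tested gut markers, 7 passed, each lower in the mutant (53.8%; median -0.40, summed level 334.1 to 364.9 CPM in the mutant and 393.6 to 498.9 CPM in OreR). The lists share dve, lab and Ptx1 and are not independent. Of their genes, Nha1, Ncc69, Irk2, Irk3 and CAH1 recur in the list of ion exchangers and channels below, and Npc1b in that of the endolysosome. The summed levels of both tissue lists were lower in every mutant library. These sums lean on abundant genes. The tested gene with the highest level in each list, tsh for tubule and hindgut and srp for gut, did not pass (edgeR adjusted p = 0.28 and 0.34). The part of these tissues in the Vha differences was not tested.

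Splice choice was examined by comparing each bin and junction with the rest of its gene. Of 17 members that could be tested, 2 changed in usage, Vha55 and Vha100-1, against 5.81% of all 9529 genes tested (diffSpliceDGE of edgeR, Simes p adjusted over genes 3.6e-13 and 0.0055). The other 15 did not pass, and 11 members, among them the single-bin genes Vha14-1, Vha36-1 and VhaM9.7-c, could not be tested. Of 170 member features tested, 2 passed, against 1.74% of all features. In Vha55 the change was in 1 rare exonic bin, E006. It took 0.749%, 1.12% and 0.973% of gene counts in mutant replicates 1 to 3, against 0.158%, 0.184% and 0.157% in OreR replicates 1 to 3. In counts these shares were 99, 121 and 101 in the mutant and 29, 39 and 25 in OreR. The bin therefore had more counts in each mutant library although the gene as a whole had fewer. Exact 95% binomial (Clopper-Pearson) intervals, which cover counting error only, began at 0.609% or above in mutant libraries and ended at 0.252% or below in OreR libraries. The mean share was 5.70 times as large in the mutant (log2 relative use 2.49 ± 0.21 SE, adjusted p = 2.2e-13), and the log2 relative use stayed between 2.36 and 2.64 on leaving out each library. The bins numbered beside it overlapped between the genotypes and did not pass: E005 took 4.82 ± 0.359% in the mutant and 4.42 ± 0.275% in OreR, and E007 took 4.62 ± 0.357% and 4.37 ± 0.363% in the same order (SD, n = 3 each). The bin thus remained a small part of Vha55 RNA in both genotypes. The table gives no positions for bins, so whether E006 lies in an intron, a coding exon or an untranslated region is not stated here.

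In Vha100-1 the feature that passed was the annotated junction J025. It took 0.300%, 0.198% and 0.142% of gene counts in mutant replicates 1 to 3, against 0.567%, 0.698% and 0.508% in OreR replicates 1 to 3. The counts behind these shares were 28, 17 and 14 in the mutant and 37, 54 and 34 in OreR. The junction was lower in every mutant library although the gene was higher there, with a mean share 2.77 times as large in OreR (log2 relative use -1.49 ± 0.23 SE, adjusted p = 0.00083). Leaving out each library left its adjusted p between 0.00048 and 0.032, but as a call on the gene the change did not pass without mutant replicate 2, without mutant replicate 3 or without OreR replicate 2. The bin with the next smallest p, E014, took 0.186 ± 0.0359% in the mutant and 0.413 ± 0.0426% in OreR (SD, n = 3 each; adjusted p = 0.057). The features J033, J035 and E010 of the same gene, chosen after their values were seen, were also lower in every mutant library and did not pass (adjusted p = 0.064, 0.094 and 0.27). Together with J025 and E014 they are the 5 features of Vha100-1 with an unadjusted p below 0.05. They were picked by p from these data, so their shared direction is not read as a result. All 5 were minor: in OreR none exceeded a mean of 0.981% of the gene's counts.

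**Figure D5:**
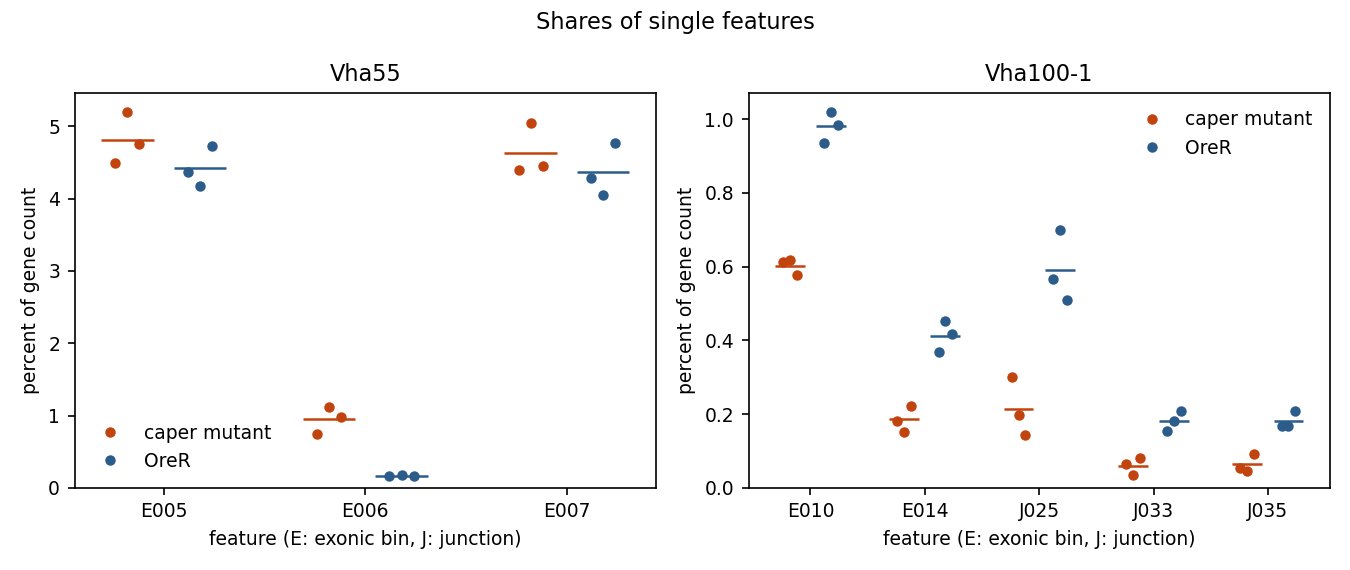
Share of the gene's counts taken by bins (E) and junctions (J) of Vha55, left, and Vha100-1, right, per library (dots) with the mean (bar), caper mutant left of OreR. E006 of Vha55 lies between 0.749% and 1.12% in the mutant and at most at 0.184% in OreR, while E005 and E007 overlap. The features of Vha100-1 shown were picked by their p and are all lower in the mutant.

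Genes around the pump were followed in 3 lists. Of 30 tested genes of the endolysosome, 13 were higher and 8 lower (70.0% passed, against 46.9% of all tested genes; median log2 fold change 0.03), and their summed level was 3635.2 to 3836.9 CPM in the mutant and 2973.6 to 3126.1 CPM in OreR. The 4 genes with the smallest p were all higher in the mutant. Npc2a, a sterol carrier of the lysosome, was 2.07-fold higher with 88.6 ± 8.43 CPM in the mutant and 42.7 ± 3.05 CPM in OreR (SD, n = 3 each; adjusted p = 0.00056). cathD, the protease cathepsin D, was 1.90-fold higher (441.6 ± 20.7 CPM in the mutant and 232.7 ± 31.5 CPM in OreR; adjusted p = 0.00081). Arl8, a small GTPase of lysosome transport, and Ppt1, a lysosomal thioesterase, were 1.64-fold and 1.79-fold higher (adjusted p = 0.00088 and 0.0010). Other lysosomal genes of the list passed as lower, among them, chosen after their values were seen, the hexosaminidases Hexo1 and Hexo2 (1.35-fold and 1.68-fold), the mannosidase LManII (1.22-fold), Gba1b (1.67-fold) and Cln3 (2.79-fold).

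Of 23 tested genes of TORC1 signalling, Mitf and pump assembly, 6 were higher and 5 lower (47.8% passed; median -0.07, equal to that of all genes). TORC1 is the growth-control kinase complex that reads nutrients at the lysosome together with the pump. SNF4Agamma, a subunit of the energy sensor AMPK, and Tsc1, an inhibitor of TORC1, were 1.66-fold and 1.98-fold higher (adjusted p = 0.0011 and 0.0012). Lamtor5, of the complex that anchors TORC1 to the lysosome, was 1.5-fold higher, and REPTOR, a transcription factor held back by TORC1, was 1.45-fold lower (adjusted p = 0.0018 and 0.0014). Mitf, the transcription factor known in flies to activate Vha genes, had 100.3, 127.1 and 110.8 CPM in mutant replicates 1 to 3 and 120.7, 90.7 and 123.6 CPM in OreR replicates 1 to 3. The ranges overlapped widely (log2 fold change 0.01 ± 0.14, adjusted p = 0.94).

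Of 20 tested ion exchangers and channels, 11 were lower and 2 higher (65.0% passed; median -0.39). These include sodium-proton exchangers, only some of which work beside the pump in epithelia. Nhe3 was 2.03-fold lower, with 67.3 ± 0.81 CPM in the mutant and 136.5 ± 13.7 CPM in OreR (SD, n = 3 each; adjusted p = 0.00045), and Nhe2 was 1.33-fold lower (adjusted p = 0.0059). The plasma membrane antiporter genes Nha1 and Nha2 were 3.57-fold and 3.71-fold lower at low levels (2.95 and 0.464 CPM in the mutant, against 10.5 and 1.72 CPM in OreR on average; adjusted p = 0.0042 and 0.0067).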

How the data were processed

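Whole-embryo RNA of the caper mutant and of OreR was sequenced with a stranded TruSeq kit as read pairs in a single lane, per the labels' protocols, which gave 3 libraries per genotype. GSNAP, SAMtools and the builds BDGP5 and mm10 are named, without roles, per the submitters' processing notes; no source used here gives the annotation, the counting tool or its use of strand. The authors deposited raw counts of each exonic bin and junction and of the rest of its gene, and the same counts divided by a size factor per library, a normalised signal that was only checked. The gene count was the smallest sum of both raw columns over a gene's features; no member was among the 48 genes where a feature exceeded its gene. Identifiers were matched to FlyBase symbols (14100 of 14737), and the BDGP6 annotation served for names, exon lengths and neighbours only.

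Gene counts were tested in R 4.3.3 with edgeR 4.0.16 (filterByExpr, TMM, glmQLFit, glmQLFTest, genotype only) over all genes, and usage with diffSpliceDGE on features with at least 10 counts; p-values were adjusted by Benjamini-Hochberg over all genes or features. A standard error is the log2 value divided by the square root of F. Copy ratios used a pseudocount of 0.5 counts and an exact two-sided permutation test. Both fits were tested on simulated data with a fixed dispersion and few changed genes or features. That test does not check the dependence on scaling seen here. Members, lists and tests were chosen with earlier results of these data known. The rule for named items took every Vha gene, up to 2 features of members with changed usage and the 4 genes of smallest p in 3 lists; other features and genes named were chosen after their values were seen. Replicate pairs of a genotype differed by more than counting noise (chi-square per degree of freedom 28.6 to 83.8). Intervals cover counting error only. Alternatives were other scalings, DESeq2 1.42.0, no filter, bins or junctions alone, a replicate block and leaving out each library.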

Additional observations from a re-analysis of the deposited data

How the results depend on the processing

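Higher members numbered 2 with TMM, 1 with upper quartile scaling, library totals or annotated junctions alone, 4 without a low-count filter or with DESeq2, and 1 to 3 on leaving out each library. Counts of lower members ran from 7 to 11 under the alternatives that kept all libraries and from 5 to 8 on leaving out each library. Calls over all genes moved too under the alternatives that kept all libraries. Lower genes ran from 1613 of 8289 tested (junctions alone) to 3824 of 10251 (library totals). Higher genes ran from 2171 of 10251 (library totals) to 2832 of 13279 (no filter). Members with changed usage numbered 1 with bins alone and 1 with junctions alone, where fewer features were tested, and 1 to 2 on leaving out each library. Non-overlapping copy ratios numbered 6 with a pseudocount of 2 and 6 with exonic bins alone. On leaving out each library they numbered 6 to 7. That number could not fall below 6, because ranges that are apart stay apart when a library is removed. Values near 0 changed sign: Vha16-1 to -0.15 (upper quartile), -0.18 (library totals) and between -0.01 and 0.08 on leaving out each library, VhaPPA1-1 to 0.04 (no filter), 0.02 (DESeq2) and between -0.01 and 0.02 on leaving out each library, the ratio of VhaM9.7-c to VhaM9.7-b between -0.05 and 0.06, and that of Vha16-5 to Vha16-1 between -0.25 and 0.83; the cause was not tested. Whether the replicate numbers pair the libraries was not settled. Correlations of same-numbered deviations were 0.09, -0.0119 and 0.597, and those of differently numbered libraries ran from -0.561 to 0.437. The highest value, 0.597, was that of the libraries numbered 3. With the replicate number as a block the edgeR adjusted p was 0.0013 for Vha100-5 and 0.005 for Vha36-3. With the replicate number as a block, 2 members were higher, 8 lower and 2 changed in usage, VhaAC45 no longer passed (adjusted p = 0.061), and differences within same-numbered pairs had 1 sign for 7 copies. Depth limits the 11 untested members, none above 36 counts in all.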
